A study of Mus musculus with 5 samples.

Results

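The T cell receptor complex and its coreceptors were followed in mouse colon over a course of colitis-associated cancer. The set holds 10 genes, Cd3d, Cd3e, Cd3g, Cd247, Zap70, Lck, Cd4, Cd8a, Cd8b1 and Cd2, taken by symbol from the 52382 genes of the deposited table. All 10 were among the 14720 genes that passed a filter of 1 CPM (counts per 1000000 counted reads) on their mean over the libraries.

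The mice were male C57BL/6 wild type animals, aged 8 to 12 weeks at the start, and no gene was altered in any group. Azoxymethane (AOM), a colon mutagen, was injected at 8.5 mg per kg on days 1 and 8, and dextran sulfate sodium (DSS), which damages the colonic epithelium, was given at 1.5% in the drinking water in cycles. W0 was the untreated control on distilled water, W2 is labelled as AOM alone, and W5, W8 and W11 as AOM with DSS, each named for its week. Every group is 1 library. The control is said by the submitters to predate administration and also to have been killed alongside treated mice, so its age relative to them is not known. From each group 3 mice were selected, and whether their RNA was pooled is not stated. A difference between weeks therefore has no replicate check and no p-value, and "rose" and "fell" stand for differences of 2-fold or more between libraries on the log2(CPM + 1) scale.

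The libraries held between 13389184 and 20379429 counted reads. The sample is called colon tissue in some labels and intestinal epithelial cells in others. The summed level of 12 epithelial genes was between 21649 and 31852 CPM, that of 10 smooth muscle genes between 3347 and 7680 CPM and that of 8 pan-leukocyte genes between 389 and 544 CPM, so the libraries were not of epithelial cells alone. The T cell label of the set was met by the alpha and beta constant genes of the T cell receptor (Trac, Trbc1 and Trbc2), which were detected in all 5 libraries.

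The antigen-binding chains of the T cell receptor have no signalling parts of their own. They are carried to the surface and coupled to the cell by the CD3 gamma, delta and epsilon chains (Cd3g, Cd3d, Cd3e) and the zeta chain (Cd247). The kinase Lck, which binds the tails of the coreceptors CD4 and CD8, phosphorylates the CD3 and zeta chains, and the kinase ZAP-70 then docks on them and passes the signal on. CD4 recognises MHC class II and CD8 recognises MHC class I, while CD2 is an adhesion receptor that helps T cells hold on to other cells. In the mouse gut, many intraepithelial T cells carry CD8 as a pair of alpha chains without the beta chain, macrophages and dendritic cells can carry CD4, and some dendritic cells carry CD8 alpha.

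Of the CD3 and zeta chains 2, 3, 1 and 2 of 4 rose at W2, W5, W8 and W11, Cd3e in none of them. Zap70 rose late and by far more than its upstream kinase, Cd4 rose at W5 alone, and Cd8a fell at W11. At W2, 2 of the 10 genes rose (3.41% of all genes tested rose) and 0 fell (4.23%). At W5, 4 rose (6.63%) and 0 fell (1.87%). At W8, 2 rose (7.79%) and 0 fell (3.85%). At W11, 3 rose (11.3%) and 1 fell (16.9%). The median log2 fold of the 10 genes against W0 was 0.67, 0.89, 0.24 and 0.88 at W2, W5, W8 and W11, beside -0.020, 0.11, 0.11 and -0.15 over all genes tested. These 4 comparisons share the W0 library. Counts for the other lists below are to be read beside these shares over all genes.

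Between successive weeks the changes were fewer. From W2 to W5, 1 gene rose (9.44% of all genes) and 0 fell (4.46%), that gene being Cd4. From W5 to W8, Zap70 rose (4.78%) and Cd4 fell (3.60%). From W8 to W11, 0 of 10 rose (3.40%) and 0 fell (11.9%), with a median of 0.50 beside -0.30 over all genes.

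**Figure D1:**
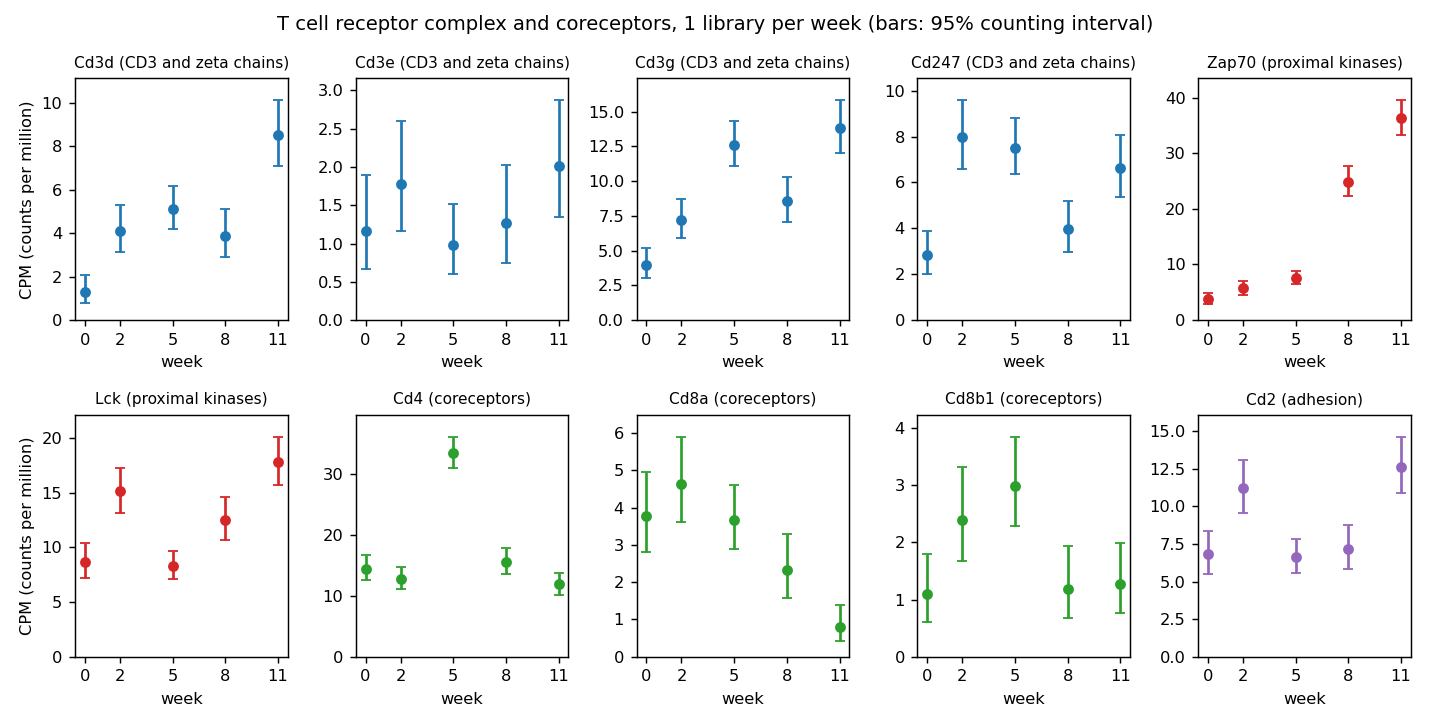
Level of each of the 10 genes in CPM (vertical axis, starting at 0 and with its own range in each panel) by week (horizontal axis), 1 library per point, with 95% counting intervals as bars and colours for the roles named in the panel titles. Zap70 climbs from 3.77 to 36.3 CPM, Cd4 stands out at W5 with 33.5 CPM, and Cd8a ends at 0.803 CPM.

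Of the CD3 chains, Cd3d and Cd3g are neighbours on chromosome 9, read in opposite directions from starts 1355 bases apart. Their promoters are shown because this pair had the largest rises of the chain genes at W11. The RefSeq windows of 250 bases before each start (mouse build GRCm38.p6) lie at chr9:44981536-44981785 on the plus strand for Cd3d and chr9:44980432-44980681 on the minus strand for Cd3g, and capitals mark matches to the TCF and LEF motif CTTTGAN.
Cd3d: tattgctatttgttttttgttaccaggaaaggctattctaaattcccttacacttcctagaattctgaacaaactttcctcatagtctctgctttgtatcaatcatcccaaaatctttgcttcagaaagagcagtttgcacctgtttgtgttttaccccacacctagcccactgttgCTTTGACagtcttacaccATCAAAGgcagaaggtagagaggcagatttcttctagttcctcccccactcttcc
Cd3g: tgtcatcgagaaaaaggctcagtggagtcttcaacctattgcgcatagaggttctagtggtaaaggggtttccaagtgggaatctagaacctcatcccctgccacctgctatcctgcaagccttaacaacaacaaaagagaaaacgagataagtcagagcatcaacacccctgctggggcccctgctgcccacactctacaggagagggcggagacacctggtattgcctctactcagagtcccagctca
The Cd3d window held CTTTGAN once on each strand, 73 to 67 and 55 to 49 bases before the start, and the Cd3g window held none. Promoter windows were matched for 7 of the 10 genes, 10 windows in all, the others being Cd4, Cd8b1 and Cd2. Searched on both strands, CTTTGAN was in 2 of these 10 windows and in 13.8% of 32851 windows of the same length. The Ets motif GGAAGT was in 6 of 10 (19.7% of all windows), the E-box CAGGTG in 6 of 10 (17.2%), and the Runx motif TGTGGT in 2 of 10 (14.0%). The E-box CAGCTG (13.0%) and TATAAA (12.4%) were in 0 of 10. Windows of 1 gene can overlap or share sequence, and a match describes letters, not binding.

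From W0 to W11, Cd3d was at 1.31, 4.10, 5.10, 3.88 and 8.50 CPM. It was thus above W0 in each treated library, with log2 folds of 1.14, 1.40, 1.08 and 2.04. The W11 level was 6.50 times that at W0 (95% counting interval 3.95 to 11.3). In the order of levels, W8 and W2 were not apart by counting error, nor were W2 and W5.

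Cd3g was at 3.99, 7.17, 12.6, 8.59 and 13.8 CPM from W0 to W11. Log2 folds of 0.71 at W2 and 0.94 at W8 lay under the 2-fold criterion, and Cd3g rose by 1.45 at W5 and 1.57 at W11. W0 was the lowest library and W5 and W11 the highest, which differed by a ratio of 1.09 (0.905 to 1.32). The ratio of Cd3d counts to Cd3g counts, chosen after the values were seen, was 0.327 (0.181 to 0.566) at W0 and between 0.405 and 0.617 later.

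Cd247 was at 2.83, 7.99, 7.51, 3.96 and 6.62 CPM. It rose by 1.23 at W2 and 1.15 at W5, and its folds of 0.37 at W8 and 0.99 at W11 did not reach the criterion. With the gene length trend described below removed, the W11 fold was 1.26. Its highest level was thus earlier than that of Cd3d and Cd3g, although in the order of levels W11 and W5 were not apart by counting, nor were W5 and W2. In the GENCODE M21 annotation, 56.4% of the exonic bases of Cd247 also belong to Pou2f1, a transcription factor gene on the opposite strand. The strand setting of the counting is not given in the sources used here, so reads of the pair cannot be told apart. Pou2f1 was at 7.33, 5.05, 7.16, 5.53 and 2.41 CPM, lowest at W11.

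Cd3e, the chain most often used to define T cells, had few reads. It was at 1.16, 1.78, 0.981, 1.27 and 2.01 CPM, which is 16 to 30 counts per library. No library was apart from its neighbours in the order, and the W11 ratio to W0 was 1.73 (0.913 to 3.40). A change like that of Cd3g at W5 (a ratio of 3.16) lay outside the interval of Cd3e at W5 (0.845, with 0.416 to 1.74), so at that week the gamma and epsilon chains differed by more than counting error. On the deposited RPKM scale, which divides by gene length, Cd3e was also the lowest of the 10 genes from W0 to W8 (0.11 to 0.18 RPKM).

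Summed, the 4 chains were at 9.29, 21.0, 26.2, 17.7 and 30.9 CPM. This was 2.26, 2.82, 1.91 and 3.33 times the W0 level at W2, W5, W8 and W11. The summed pan-leukocyte level was 1.19, 1.36, 1.26 and 1.40 times that at W0. The ratio of chain counts to pan-leukocyte counts within a library was 0.0239 (0.0199 to 0.0285) in the control and then 0.0455, 0.0495, 0.0361 and 0.0568 (0.0516 to 0.0624), and so was lowest at W0. In bulk tissue, fewer cells of a type and less RNA per cell cannot be told apart.

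Much of the rise of the chains at W5 and W8 rests on the W0 library. Against the mean of W0 and W2, the log2 folds of Cd3d were 0.72 at W5 and 0.40 at W8 and that of Cd247 was 0.41 at W5, all under the criterion, while that of Cd3g at W5 was 1.05. The W11 folds of Cd3d and Cd3g stayed past the criterion against that mean. From W2 to W5 the folds were 0.26 for Cd3d, -0.49 for Cd3e, 0.74 for Cd3g and -0.080 for Cd247.

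The constant genes of the T cell receptor chains, which are not in the set, give a second reading of the same complex. Trac, of the alpha chain, was at 4.72, 8.61, 9.27, 5.83 and 6.76 CPM. Trbc2, of the beta chain, was at 2.98, 9.77, 9.96, 7.02 and 16.2 CPM, and rose by 1.44, 1.46, 1.01 and 2.11. Trbc1, the other beta constant gene, was at 1.96, 4.23, 7.16, 4.11 and 9.17 CPM, and rose at W5 (1.46) and W11 (1.78). The beta genes were thus highest at W11 and the alpha gene at W2 and W5, and the beta genes are close copies, between which reads can be shared.

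The gamma constant genes were sparse. Trgc1 had 1 count at W0 and 3.14 CPM at W5, and the 3 gamma constant genes summed to 0.798, 1.98, 5.74, 2.84 and 3.68 CPM, highest at W5 (7.19 times W0, with 3.87 to 14.8). Trdc, of the delta chain, had 1 count in all, at W11, so gamma and delta chains were not read at a comparable depth. Of 4 constant genes tested, 1, 3, 2 and 3 rose at W2, W5, W8 and W11 (3.41%, 6.63%, 7.79% and 11.3% of all genes), and 0 fell.

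The 7 constant genes in the file summed to 10.5, 24.6, 32.1, 19.8 and 35.9 CPM, which was 2.35, 3.08, 1.89 and 3.43 times W0 from W2 on. The ratio of CD3 and zeta chain counts to constant gene counts stayed between 0.815 and 0.894, with counting intervals that overlapped in all 5 libraries. The 178 variable segments in the file together had 85, 97, 172, 86 and 192 counts, of which 22, 28, 35, 29 and 38 segments had at least 1. The segments with the most counts were Trbv16, Trbv13-1 and Trbv13-2, with 48, 47 and 47 over the 5 libraries, and they were present in every library.

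**Figure D2:**
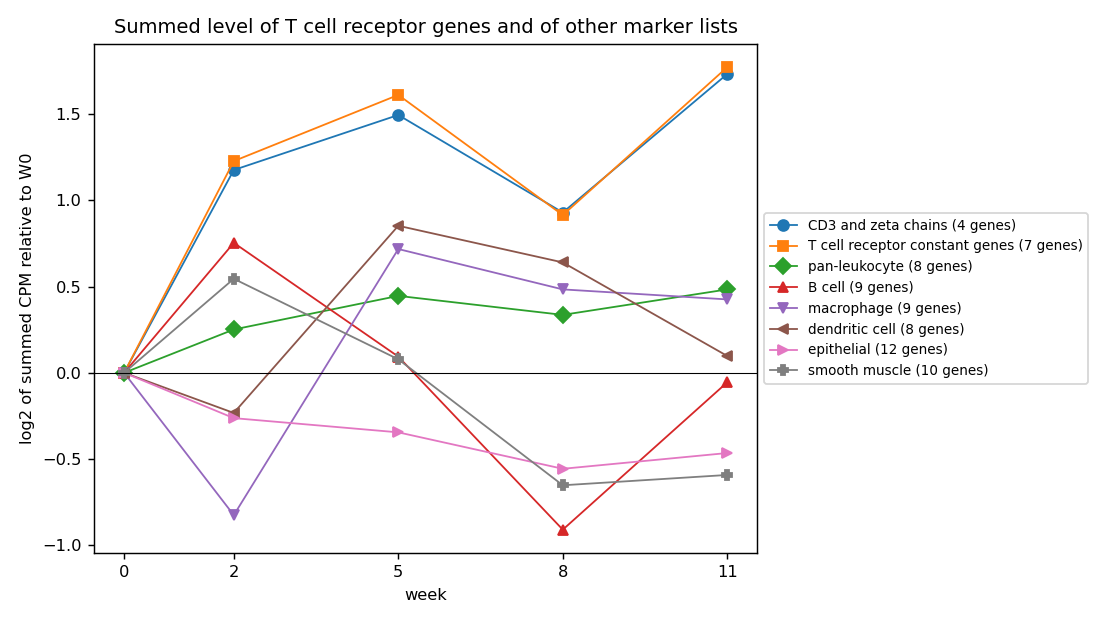
Summed CPM of each gene list relative to W0 on a log2 scale (vertical axis) by week (horizontal axis), 1 library per point, with lines only joining points of a list. The CD3 and zeta chains and the T cell receptor constant genes run close together and peak at W11, at 3.33 and 3.43 times W0, and the pan-leukocyte list stays within 1.40 times W0. The sums are not corrected for gene length, which folds at W11 followed.

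The kinases Lck and Zap70 parted from each other after W2. The promoter of Zap70 is shown because it had the largest rise of the 10 genes. RefSeq gives it 3 windows, of which that at chr1:36761548-36761797 (GRCm38.p6, plus strand) is the only one with CTTTGAN, in capitals 21 to 15 bases before the start.
Zap70: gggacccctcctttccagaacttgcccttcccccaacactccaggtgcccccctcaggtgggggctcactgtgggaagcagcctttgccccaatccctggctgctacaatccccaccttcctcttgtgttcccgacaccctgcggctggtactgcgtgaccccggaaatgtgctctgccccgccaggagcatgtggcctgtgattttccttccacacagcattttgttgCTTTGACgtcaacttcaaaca
From W0 to W11, Zap70 was at 3.77, 5.74, 7.61, 24.9 and 36.3 CPM. Each library was above the one before by more than counting error, with the widest step from W5 to W8 (3.27 times, 2.69 to 3.98). The log2 folds against W0 were 0.50, 0.85, 2.44 and 2.97, and the W11 level was 9.63 times that at W0 (7.23 to 13.1).

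Lck was at 8.71, 15.2, 8.29, 12.5 and 17.8 CPM. W5 and W0 were the lowest and W2 and W11 the highest, and neither pair was apart by counting. Its log2 folds were 0.74, -0.063, 0.48 and 0.95, none at the criterion. The counts at W11 were 2.04 times those at W0 per read (1.64 to 2.56), and with TMM scaling the log2 fold at W11 was 1.08.

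The ratio of Zap70 counts to Lck counts was 0.433 (0.307 to 0.605) at W0 and 0.378 (0.291 to 0.488) at W2. It was 0.917 (0.733 to 1.15) at W5, 1.98 (1.64 to 2.40) at W8 and 2.04 (1.76 to 2.37) at W11. A ratio of counts within a library needs no scaling, and this one was 4.71 times as high at W11 as at W0. The ratio of Zap70 to Cd3g was 0.945, 0.800, 0.603, 2.90 and 2.64, so Zap70 stood higher against a CD3 chain at W8 and W11 than in the earlier libraries, where the intervals did not overlap with those of W8 and W11. These ratios were chosen after the values were seen and were not corrected for GC content. From W5 to W8 the median log2 fold of all genes tested went from -0.32 in the lowest of 10 GC classes to 0.28 in the highest. Cd3g lies in the lowest of these classes and Zap70 in the highest.

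On the deposited RPKM scale Zap70 was at 0.43 at W0, below Cd4, Cd2, Lck and Cd3g, and was the highest of the 10 genes at W8 (2.87) and W11 (4.12). ZAP-70 is also used by natural killer (NK) cells. Of 11 NK and innate lymphoid genes, Ncr1, an NK receptor, was at 0.0726, 0.273, 0.589, 0.299 and 0.268 CPM, and Klrb1c, which encodes NK1.1, was at no more than 0.687 CPM in any library. Eomes, a transcription factor of NK and cytotoxic T cells, was at 0.145, 3.48, 0.491, 0.299 and 0.201 CPM, high at W2 alone, and did not pass the filter. Klrb1b was listed at 0 in all 5. Klrk1, the activating receptor NKG2D of NK and CD8 T cells, was at 0.726, 2.32, 2.60, 1.57 and 3.14 CPM and rose at W5 (1.06) and W11 (1.26). The list summed to 41.8, 47.9, 90.6, 140 and 124 CPM, largely from Id2 and Il1rl1, which other cells also express. At W2, 1 of its 4 tested genes rose (3.41% of all genes), at each of W5, W8 and W11 it was 3 of 4 (6.63%, 7.79% and 11.3%), and 0 fell. Its part in the Zap70 result was not tested.

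**Figure D3:**
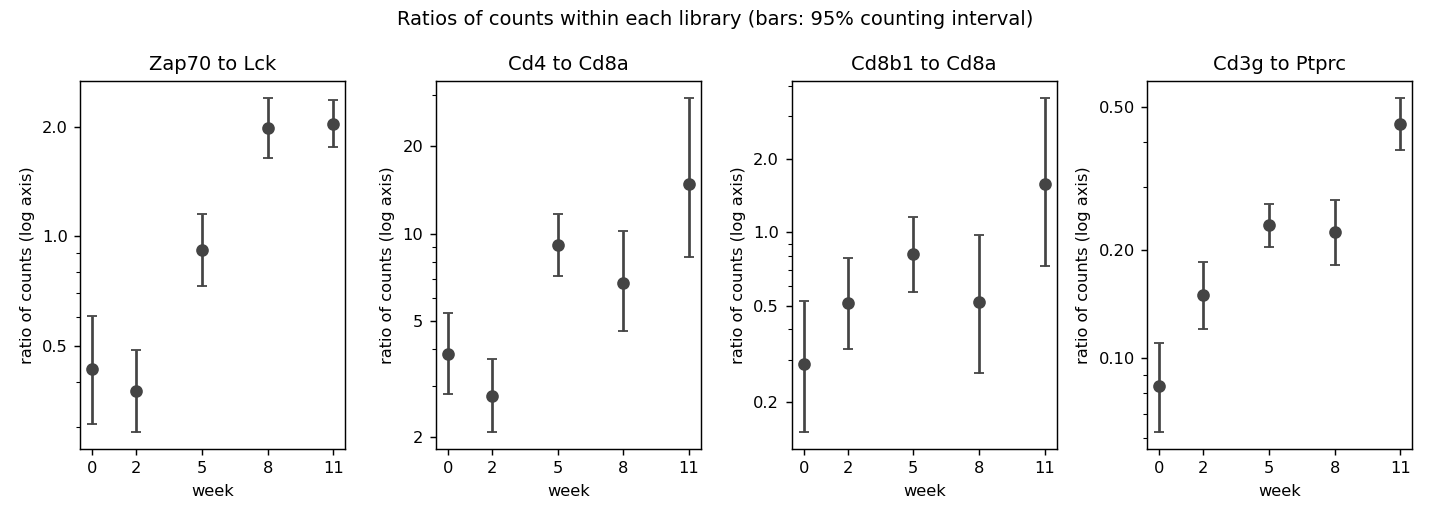
Ratio of the counts of gene pairs within each library (vertical log axis, its own range in each panel) by week (horizontal axis), 1 library per point, with 95% counting intervals as bars. Zap70 to Lck goes from 0.433 to 2.04, Cd4 to Cd8a from 3.85 to 14.8, Cd8b1 to Cd8a from 0.288 to 1.58, and Cd3g to Ptprc from 0.0837 to 0.449. Zap70 to Lck and Cd3g to Ptprc were chosen after the values were seen. No ratio is corrected for gene length, which folds at W11 followed, or for GC content, which folds at W5 followed.

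Of the coreceptors, Cd4 was, from W0 to W11, at 14.5, 12.8, 33.5, 15.6 and 11.9 CPM. W5 alone stood out, at 2.31 times W0 (1.97 to 2.72). In the order of levels the other 4 libraries were not apart from their neighbours by counting, although W11 was at 0.763 of W8 (0.621 to 0.936). Cd4 rose by 1.15 at W5 against W0 and by 1.32 against W2, and fell by 1.06 from W5 to W8. With a pseudocount of 5 the W5 fold was 0.98, just under the criterion.

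The summed macrophage and dendritic cell genes were also highest at W5. The 9 macrophage genes summed to 507, 286, 834, 709 and 681 CPM. Of 8 tested, 0 rose and 4 fell (4.23% of all genes) at W2 against W0, and 1 rose (6.63%) and 0 fell at W5. From W2 to W5, 7 rose (9.44%). The scavenger receptor Cd163 was at 11.9, 6.97, 23.0, 7.99 and 1.20 CPM and the phosphatidylserine receptor Timd4 at 0.435, 0.342, 1.57, 0.448 and 0.602 CPM, both highest at W5. Cd163 fell by 2.55 at W11 against W0. Adgre1, C1qb, Cd68, Mrc1 and Cx3cr1 were highest at W5 too, Cd68 by little (30.6 CPM, with 29.9 at W11). Of the list C1qa and Csf1r alone peaked later. C1qa, a complement component, was at 107, 84.8, 167, 204 and 250 CPM. Csf1r, the macrophage growth factor receptor, was at 97.7, 38.5, 116, 123 and 60.4 CPM. Timd4 did not pass the filter and was named after its values were seen. None of the 9 was at 0. The 8 dendritic cell genes summed to 31.5, 26.8, 56.9, 49.1 and 33.7 CPM, with 0 of 7 tested past the criterion at W5 and no gene at 0. The ratio of Cd4 to Csf1r was 0.149, 0.334, 0.290, 0.127 and 0.197, and that of Cd4 to Trac was 3.08, 1.49, 3.61, 2.68 and 1.76. Both ratios were chosen after the values were seen. The part of these cells in the Cd4 result was not tested.

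Cd8a, the alpha chain of CD8, was at 3.77, 4.64, 3.68, 2.32 and 0.803 CPM, which is 52, 68, 75, 31 and 12 counts. The 3 earlier libraries were not apart by counting, W8 lay below them and W11 below W8. Cd8a fell by 1.40 at W11, to 0.213 of the W0 level (0.103 to 0.404), and its folds of 0.24, -0.029 and -0.53 at the earlier weeks did not reach the criterion. On 12 counts the W11 fold depends on the pseudocount, and was -0.60 with a pseudocount of 5.

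Cd8b1, the beta chain that pairs with CD8 alpha on conventional cytotoxic T cells, was at 1.09, 2.39, 2.99, 1.19 and 1.27 CPM, from 15 to 61 counts. W2 and W5 were above the other 3 libraries, and the W5 ratio to W0 was 2.75 (1.54 to 5.21), although the log2(CPM + 1) fold of 0.93 missed the criterion. The ratio of Cd8b1 to Cd8a counts was 0.288 (0.151 to 0.520) at W0, 0.515 (0.332 to 0.785) at W2, 0.813 (0.570 to 1.16) at W5, 0.516 (0.264 to 0.973) at W8 and 1.58 (0.730 to 3.58) at W11. The intervals of W0 and W11 did not overlap, nor did those of W0 and W5, and all other pairs of libraries overlapped. Cd8b1 is the shorter gene, and the length trend at W11 described below was not removed from this ratio.

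The ratio of Cd4 to Cd8a counts was 3.85 (2.82 to 5.32) at W0, 2.76 (2.08 to 3.70) at W2, 9.11 (7.17 to 11.7) at W5, 6.74 (4.61 to 10.2) at W8 and 14.8 (8.28 to 29.3) at W11. It was higher at W5 and W11 than at W0 and W2, through Cd4 counts at W5 and through Cd8a counts at W11. Of 8 tested MHC genes, the ligands of the coreceptors, 1, 0, 1 and 1 rose at W2, W5, W8 and W11 and 0 fell. Among them the class II gene H2-Ab1 had its largest log2 fold at W2 (0.85), as did Cd74, the class II chaperone (0.85), both under the criterion, while the class I gene H2-Q7, which has close copies, rose by 1.66 at W2.

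**Figure D4:**
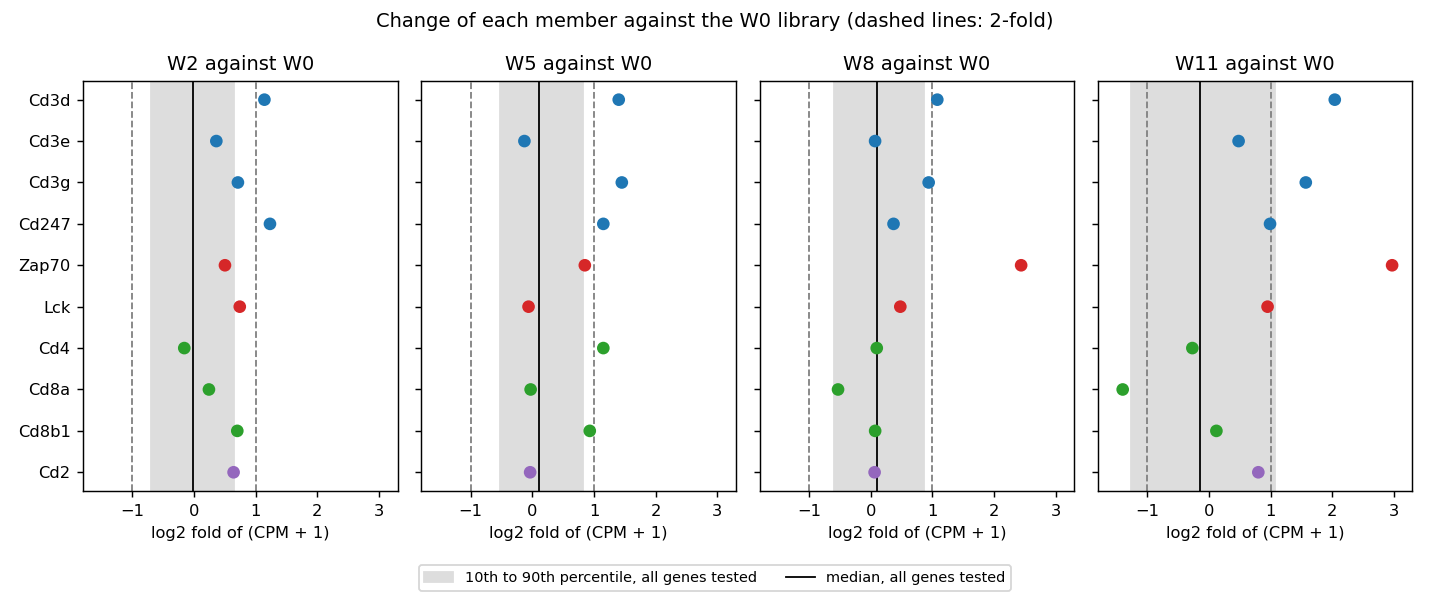
Log2 fold of CPM + 1 against the W0 library (horizontal axis) for each of the 10 genes (vertical axis), 1 panel per treated library, with grey bands for the 10th to 90th percentile of all genes tested and dashed lines at 2-fold. Zap70 lies farthest right at W8 (2.44) and W11 (2.97), and Cd8a lies left of the dashed line at W11 (-1.40).

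Cd2, the adhesion receptor, was at 6.82, 11.2, 6.62, 7.17 and 12.6 CPM. It was high at W2 and W11 and low in the other 3 libraries, which were not apart by counting, and its folds of 0.64, -0.037, 0.063 and 0.80 did not reach the criterion. Lck had the same order of libraries, W5, W0, W8, W2 and W11 from low to high, as did Cd3e.

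Among 8 tested genes of the CD2 family and its partners, 0, 1, 1 and 2 rose at W2, W5, W8 and W11, and 0 fell. Cd244a, a receptor of NK cells and some cytotoxic and intraepithelial T cells that binds CD48, was at 1.38, 2.12, 7.07, 15.9 and 26.6 CPM. It rose by 1.76, 2.83 and 3.54 at W5, W8 and W11, where it was 19.3 times W0 (12.2 to 32.4). Like Zap70 it was highest at W11 and higher in each library than in the one before. Its ligand Cd48 was at 7.91, 9.63, 15.5, 10.3 and 17.3 CPM and rose at W11 (1.04). Sh2d1a, the adaptor SAP of this family, was at 0.218, 1.64, 0.736, 0.747 and 0.803 CPM and did not pass the filter, and Ly9 was listed at 0 in all libraries.

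Downstream of the receptor, of 14 tested genes of proximal signalling, 1, 0, 0 and 1 rose and 0, 0, 0 and 1 fell at W2, W5, W8 and W11, with medians of 0.26, 0.26, 0.13 and -0.021. These counts are near the shares over all genes given above. Prkcq, the protein kinase C theta of the immune synapse, was at 2.98, 3.76, 5.59, 5.90 and 8.90 CPM and rose at W11 (1.32). The transcription factor Nfatc1 fell by 1.17 at W11, and Tespa1, an adaptor needed in thymic selection, rose by 1.01 at W2. Lat, the scaffold that ZAP-70 phosphorylates, was at 5.59, 5.87, 7.02, 7.77 and 6.96 CPM, with folds between 0.061 and 0.41. Lat was named after its values were seen. Lcp2, which encodes the adaptor SLP-76, was listed at 0 in all libraries, as was B2m of the MHC list. A listing at 0 in all libraries, for these and for the other genes so described, is not read as absence.

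Of 13 tested brakes and adaptors of the receptor, 0, 1, 0 and 0 rose and 0, 0, 0 and 3 fell. The phosphatase Ptpn22 rose at W5 (1.09). At W11, Pag1, a membrane anchor for the inhibitory kinase Csk, fell by 2.01, Cbl, a ubiquitin ligase, by 1.86 and Dgka, a diacylglycerol kinase, by 1.43. Many genes of this list are expressed outside T cells, and 16.9% of all genes fell at W11.

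Of 14 tested T cell lineage and homing genes, 3, 5, 3 and 2 rose and 0, 0, 0 and 2 fell. Over all genes tested 3.41%, 6.63%, 7.79% and 11.3% rose, and 16.9% fell at W11. Tcf7, a transcription factor of T cells that is also part of Wnt signalling in the gut epithelium, was at 14.4, 21.7, 30.4, 52.2 and 40.9 CPM and rose by 1.03, 1.79 and 1.45 at W5, W8 and W11. Its relative Lef1 was at 1.02, 1.30, 3.14, 10.1 and 6.76 CPM and rose by 1.04, 2.46 and 1.94. Both were highest at W8. Gata3, a factor of type 2 helper T cells, had 1 count at W0 and was at 2.53 CPM at W2 (log2 1.72), and Zbtb7b, the factor that sets the CD4 lineage, fell by 1.58 at W11. Cd28, the main costimulatory receptor, was at 0.145 to 0.597 CPM and did not pass the filter, and Cd27 was listed at 0.

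Helper and regulatory subset genes were mostly too low to follow, with 4 of 11 tested. Il2ra, the interleukin 2 receptor alpha chain, was at 0.653, 2.46, 3.88, 2.99 and 1.61 CPM and rose by 1.07, 1.56 and 1.27 at W2, W5 and W8. Ikzf2, of regulatory T cells, rose by 1.21 at W2, and Il17a was at 1.67 CPM at W11 and at no more than 0.224 CPM before. Foxp3 was listed at 0 in all libraries, so regulatory T cells could not be followed by it. Over this list 2, 1, 1 and 0 rose and 0 fell at W2, W5, W8 and W11.

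Of 12 tested intraepithelial lymphocyte genes, 0, 3, 4 and 4 rose and 0 fell at W2, W5, W8 and W11. Of all genes tested, 3.41%, 6.63%, 7.79% and 11.3% rose in the same comparisons. Gzma, granzyme A, was at 2.03, 2.32, 3.73, 4.85 and 12.0 CPM and rose by 2.10 at W11, and Cd96, a receptor of T and NK cells, rose by 1.22, 1.35 and 1.18 at W5, W8 and W11. Klrd1, which encodes CD94, rose at W5 (1.39). Itgae, the integrin CD103 that anchors these cells to epithelium, was at 10.8, 7.38, 14.0, 11.6 and 12.8 CPM and did not pass the criterion in any week. The gene Itgae was named after its values were seen. The list shares Cd244a with the CD2 family, and Cd7, Xcl1 and Gpr18 were listed at 0.

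B cell genes took another course, with sums of 134, 226, 143, 71.3 and 129 CPM over 9 genes, highest at W2 and lowest at W8. At W8, 5 of 8 tested fell (3.85% of all genes). The ratio of Cd3e to the B cell gene Cd79b was 0.0331 (0.0188 to 0.0544) at W0 and between 0.0248 and 0.0567 later, with intervals that all overlapped that of W0. The planned ratio of Cd3e to Ptprc, the pan-leukocyte phosphatase CD45, was 0.0244 (0.0138 to 0.0398) at W0. It was then 0.0372, 0.0183, 0.0333 and 0.0654 (0.0436 to 0.0946), lowest at W5. Of the treated libraries W11 alone had an interval apart from that of W0. The ratio of Cd3g to Ptprc, chosen after the values were seen, was 0.0837 (0.0624 to 0.110) in the control. It was then 0.150, 0.235, 0.225 and 0.449 (0.379 to 0.530). Ptprc itself was at 47.7, 47.7, 53.7, 38.2 and 30.7 CPM.

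At W11 folds followed gene length across the transcriptome. The median log2 fold against W0 went from 0.55 in the shortest to -0.68 in the longest of 10 length classes, while at W5 it was 0.079 and 0.12. Cd3d and Cd8b1 lie in class 2, Cd3g in 3, Zap70 and Lck in 4, Cd4 in 5 and Cd247 and Cd8a in 7, and Trac, Trbc1 and Trbc2 in 1. The W11 folds of Trac, Trbc1 and Trbc2 were 0.44, 1.78 and 2.11, beside their class median of 0.55. At W11 the class median was 0.31 for class 2 and -0.27 for class 7. Summed levels and ratios of counts were not corrected for this trend. With the median of the class subtracted, the W11 folds were 1.74 for Cd3d, 2.96 for Zap70 and -1.14 for Cd8a, so each of these kept its direction and stayed past the criterion. Cd247, at 0.99 before, was then at 1.26 and so passed the criterion. At W5, folds followed GC content instead, from 0.45 in the lowest to -0.21 in the highest of 10 classes, where Cd3g lies in class 1 and Zap70 in class 10. With that trend removed the W5 folds were 1.00 for Cd3g, which before rounding lay just under the criterion, 1.06 for Zap70, 0.93 for Cd247 and 1.13 for Cd4. Folds from W5 to W8 ran the other way, from -0.32 in the lowest to 0.28 in the highest GC class. Ratios of counts were not corrected for GC content either. The cause of these trends was not tested.

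**Figure D5:**
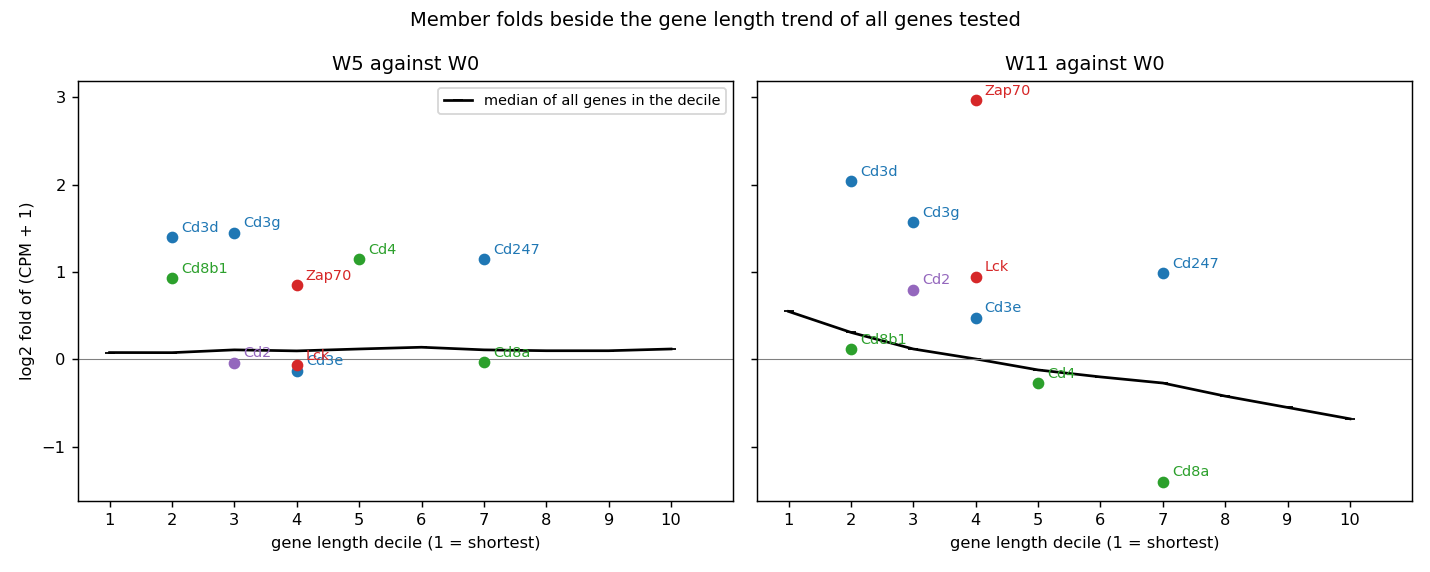
Log2 fold of CPM + 1 against W0 (vertical axis) by gene length class (horizontal axis, 1 the shortest), at W5 and W11, with points for the 10 genes and a line for the median of all genes tested in each class. The line is flat at W5 and goes from 0.55 to -0.68 at W11, where Zap70 at 2.97 lies far above it and Cd8a at -1.40 below it.

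Genes with the most similar course over the 5 libraries were ranked by the root mean square difference of their centred log2(CPM + 1) values. For the median of the CD3 and zeta chains these were Shcbp1 (0.053) and Nusap1 (0.10), both of dividing cells, Klrk1 (0.075), Zfp938 (0.093), Zfp617 (0.11) and Irak1bp1 (0.12). By the same measure Zap70 (0.95), Cd8a (0.90) and Cd4 (0.62) were the farthest of the 10 genes from the chain median. Cd2 (0.41), Cd8b1 (0.42) and Lck (0.43) lay as far from it as the chain Cd3e (0.42). Cd3g (0.19), Cd3d (0.24) and Cd247 (0.25) were nearest, but the chains make up this median, so their nearness is partly built in. For Cd4 the nearest genes were Cd200 (0.073), Gpr132, Mfsd11, Pqlc3, B3gnt5 and Lpl (0.11). For Cd8a they were Cep152 (0.042), Klf9, Ppp1r15b, Zfp398, Itpkb and Adcy5 (0.069). For Zap70, ranked after its values were seen, they were Cep112 (0.096), Rnf183, Catsperd, Col9a2, Ifitm3 and Rps6kl1 (0.23). Cep112 was at 3.27, 4.78, 7.95, 23.8 and 34.9 CPM. With 5 libraries and 13351 genes ranked for the single-gene courses (10747 for the chain median, where a minimum range applied), close matches are found for many shapes.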

How the data were processed

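Total RNA of the colon was sequenced in 5 libraries, 1 per week. Per the submitters' processing notes the tools include HISAT2 2.2.1, featureCounts and FastQC, with 2 mouse builds, GRCm38 and GRCm39, so no coordinates were taken from the table. Nothing on annotation, strand setting, reads with several matches or pooling is given in the sources used here.

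In the deposited table each library has 2 columns. Those headed TPM hold whole-number counts with a different total in each library, and those headed count hold the authors' length-scaled values, taken here as RPKM. The ratio of the columns relative to W0 was constant within 1% in 2620 of 2620 genes over 5 RPKM in every library, so the headers were taken as exchanged. The work had been planned for TPM, with CPM as the stated option for counts.

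Counts were scaled to CPM by the library total, and folds were differences of log2(CPM + 1), which understates changes at low levels. The 14720 genes averaging 1 CPM or more were tested, and a 2-fold difference was the criterion. Ratios carry exact conditional (Clopper-Pearson) 95% intervals, which cover counting error only. The planned ratios of gene pairs were Cd8b1 to Cd8a, Cd4 to Cd8a, Cd247 to Cd3e, Cd3e to Ptprc and Cd3e to Cd79b. Other gene pairs were added after the values were seen. Of several identifiers with the same symbol, that with the most counts was used, and 118 rows had no symbol. The 10 genes and the lists were chosen with earlier results of these data known. Some genes first placed in the lists are not reported here, and list counts and sums leave them out. Named genes were the 10, up to 4 per list with the largest fold against W0 at any week and at least 1 CPM in either library, the 6 nearest courses, and the 3 segments with the highest totals. Genes outside this rule are described for their list role or said to have been picked once values were known.

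Other settings tried were no filter or a filter at a mean of 5 CPM, pseudocounts of 0.1 and 5, median-of-ratios and TMM scaling (edgeR 4.0.16), a reduced library total, the deposited RPKM values with a pseudocount of 0.1, and a baseline averaging W0 with W2. Centred folds and removal of the length or GC trend were added after seeing the data. Length classes came from dividing one deposited column by the other, and overlaps and GC content from GENCODE M21. Promoter windows came from RefSeq (GRCm38.p6). The steps were tested on simulated data. Python 3.11.15, numpy 2.4.6, pandas 2.3.3, scipy 1.17.1, matplotlib 3.10.9 and R 4.3.3 were used.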

Additional observations from a re-analysis of the deposited data

How the results depend on the processing

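No fold of the 10 genes called at 2-fold changed sign under any alternative tried. Of 15 calls, 15 remained with no filter, a pseudocount of 0.1, the reduced total or the deposited RPKM values, 14 with TMM, median-of-ratios, centred folds or the length trend removed, 12 with the GC trend removed and 6 with a pseudocount of 5. With a mean of at least 5 CPM, 10 of the 10 calls that could be made remained, and with a baseline averaging W0 with W2, 7 of 10. The counts of genes that rose were as follows, and those of comparisons and settings not named did not move. At W2 against W0, 2 became 0 with a pseudocount of 5, 1 with a mean of at least 5 CPM and 3 with a pseudocount of 0.1. At W5 against W0, 4 became 0 with a pseudocount of 5, 2 with the averaged baseline, 3 with a mean of at least 5 CPM or the GC trend removed, and 5 with a pseudocount of 0.1 or the RPKM values. At W8 against W0, 2 became 1 with a pseudocount of 5, median-of-ratios, TMM, a mean of at least 5 CPM, the averaged baseline, centred folds, or the length or GC trend removed, and 3 with a pseudocount of 0.1. At W11 against W0, 3 became 6 with median-of-ratios, 5 with a pseudocount of 0.1, TMM, centred folds or the GC trend removed, 4 with the reduced total or the length trend removed, and 2 with a mean of at least 5 CPM. From W8 to W11, 0 became 2 with median-of-ratios, centred folds or the GC trend removed, and 1 with a pseudocount of 0.1, TMM, the reduced total, the RPKM values or the length trend removed. The counts of genes that fell moved at W11 against W0, where 1 became 0 with a pseudocount of 5 and with a mean of at least 5 CPM, since Cd8a then has too low a mean. From W5 to W8, 1 became 2 with a pseudocount of 0.1 or the RPKM values and 0 with a pseudocount of 5, and from W8 to W11, 0 became 1 with a pseudocount of 0.1. A larger pseudocount shrinks folds of low genes by construction, and the cause of the other shifts was not tested. Some switches were of folds near the criterion, such as Cd3d at W8 (1.08, and 0.97 to 0.99 with TMM, median-of-ratios, centred folds or the GC trend removed), and others were wider, such as Cd247 at W5 (1.15, and 0.41 with the averaged baseline). No paired analysis was possible because each week has 1 library.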
